A study of Mus musculus with 128 samples.

Results

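The change of gene expression in skeletal muscle between 15 and 24 months of age was examined across all expressed genes, in 8 libraries of a mouse ageing series that holds 16 libraries of each of 8 tissues. The tissue was gastrocnemius muscle, a fast-twitch calf muscle, from male wild-type C57BL/6J mice that were given no treatment. The 15-month group and the 24-month group had 4 libraries each, and 4 libraries each of the same muscle at 6 and 30 months entered the fit to share its estimate of the spread. The labels do not say whether the 4 libraries of an age came from separate animals, so p-values measure only the spread between these libraries. Messenger RNA was sequenced, and the values are normalised counts, that is the authors' gene counts divided by a size factor per library. Of 55285 gene symbols in the Muscle table, 14561 had enough reads to be tested.

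Skeletal muscle fibres contract by means of myosin and actin, and take their energy from glycolysis and from the mitochondrial respiratory chain. Interferons induce a set of genes that includes large guanosine triphosphatases (GTPases) and the machinery that loads peptides onto class I major histocompatibility complex (MHC) molecules for display at the cell surface. Heat shock proteins fold other proteins, and their genes are switched on rapidly by heat or proteotoxic stress. Resident macrophages clear debris in muscle, and the complement C1q chains are largely made by them.

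The 8 libraries carried the transcripts of a fast muscle. Myh4, the fast IIb myosin heavy chain, ranged from 680613 to 802195 normalised counts at 15 months and from 681073 to 740211 at 24 months, while Myh7, the slow myosin heavy chain, ranged from 2134 to 2952 and from 2775 to 5094. Depth was 12263657 to 16370083 reads at 15 months and 16072269 to 21220993 at 24 months. With at least 1 read, 18469 to 19191 genes were detected at 15 months and 19627 to 20363 at 24 months. The 15-month libraries were the shallower group, although the deepest of them exceeded the shallowest of 24 months, and what depth contributes to the results was not tested. Replicate 3 at 30 months stood apart from the other 15 Muscle libraries, with a median rank correlation of 0.969 against 0.983 to 0.989. It belongs to neither age compared and enters through the shared estimate of the spread and through the filter on low reads, which 14637 genes passed without it. Counts for gene lists are given without it where they differ by over 1.5 times.

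At 24 against 15 months 350 genes passed an adjusted p of 0.05, which is 2.4% of those tested. Of these, 171 were higher at 24 months (1.17% of genes tested) and 179 were lower (1.23%). The higher genes moved further: their median log2 fold change was 0.71, and 59 of them exceeded 1, against a median of -0.35 and 10 genes beyond 1 in size among the lower. The 4 libraries of 24 months lay wholly above the 4 of 15 months in 159 of the 171 higher genes and wholly below them in 174 of the 179 lower ones; over all genes tested, 5.95% lay wholly above and 6.97% wholly below. Without 30-month replicate 3 the count was 974 genes (6.65%), 470 higher (3.21%) and 504 lower (3.44%), and it held all 171 and all 179. The count depended on single libraries in the other direction too: it was 45 without 24-month replicate 2, 70 without replicate 4 and 82 without replicate 1 of that age, and 113, 131 and 169 without 15-month replicates 2, 3 and 4. Of the higher genes 18, and of the lower genes 18, passed in each of the 16 fits that left out a library.

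**Figure D1:**
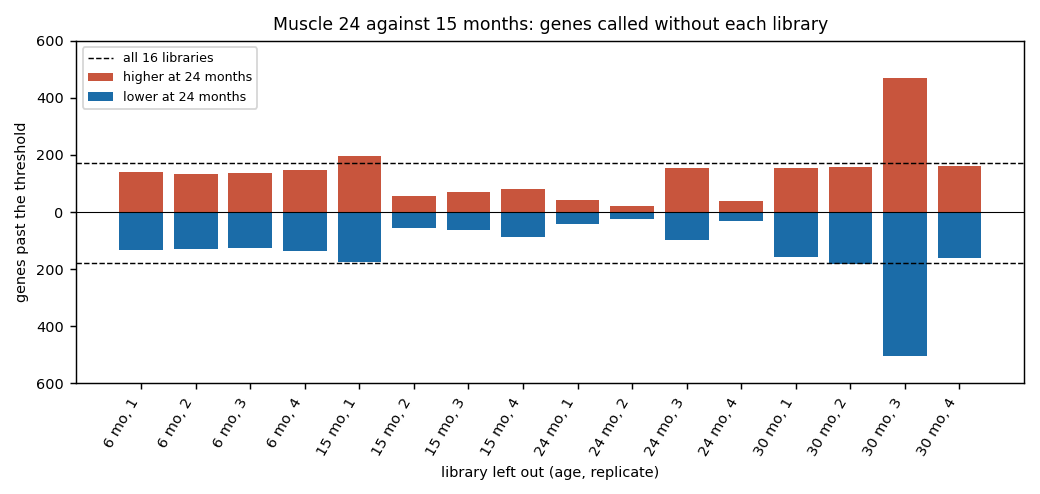
Number of genes past the threshold at 24 against 15 months (vertical axis; higher at 24 months above 0, lower below 0) when the library named on the horizontal axis is left out. Dashed lines mark the 171 higher and 179 lower genes found with all 16 libraries; the count ranged from 45 without 24-month replicate 2 to 974 without 30-month replicate 3.

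The highest log2 fold changes belonged mostly to interferon-inducible GTPases and to class I MHC genes. The 12 highest, among genes with a mean of 50 or more reads and no overlap between the groups, were Krt18, Gbp5, Tgtp1, Gbp4, Tgtp2, Gbp3, H2-Q7, Gvin2, Tap1, H2-Q6, Apol10b and Psmb9. Krt18 is described further on, with Myh3. Several of the others belong to families of near-identical copies (Tgtp1 and Tgtp2, H2-Q6 and H2-Q7, the Gbp and Gvin genes) whose reads the counting may have split, so their separate levels are uncertain.

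**Figure D2:**
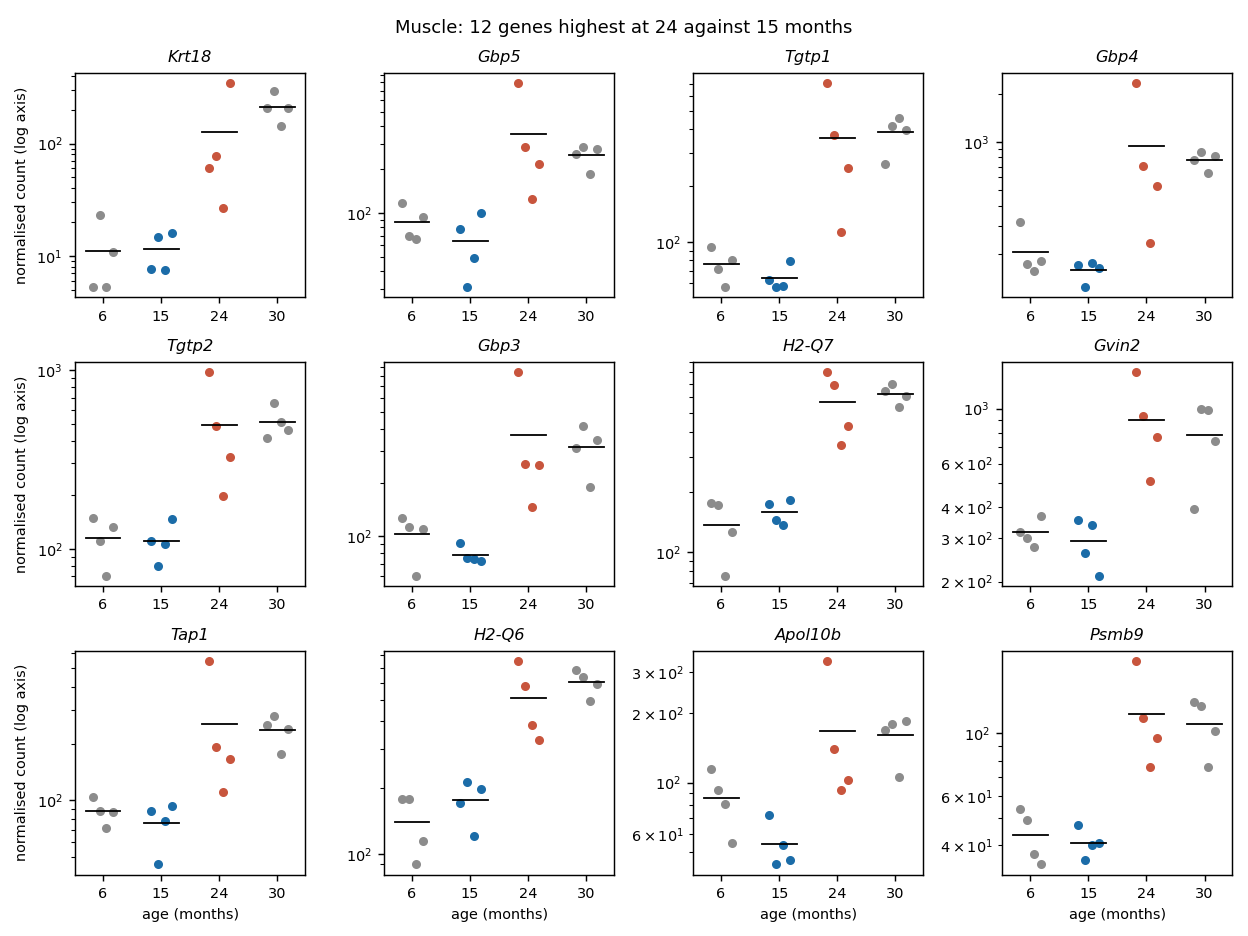
Normalised counts (log axis) of the 12 highest genes against age in months, with each point a library and each bar the mean of 4. The 24-month points (red) lie above the 15-month points (blue) in every panel, as the naming rule required. Tgtp1 spans 113 to 702 at 24 months and 57.6 to 79.2 at 15 months.

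Tgtp1 encodes a T-cell specific GTPase of the immunity-related family that acts on the vacuoles of intracellular parasites. Its normalised counts in replicates 1 to 4 were 62.5, 57.6, 58.1 and 79.2 at 15 months and 702, 371, 113 and 249.5 at 24 months, a log2 fold change of 2.18 ± 0.37 (adjusted p = 0.0104). All 4 older libraries were above all 4 younger ones, which the naming rule required. Replicate 1 was highest and replicate 3 lowest of the 24-month group. Gbp5, a guanylate-binding protein that takes part in inflammasome activation, was at 77.8, 31.0, 49.2 and 101 at 15 months and at 784, 284, 126 and 217 at 24 months, a log2 fold change of 2.23 ± 0.43 (adjusted p = 0.0178). The order of the older libraries was similar, with replicate 1 far above the rest. Gbp4 had 171, 124, 176 and 162 normalised counts at 15 months and 2324, 707, 232 and 533 at 24 months (log2 fold change 2.09 ± 0.45, adjusted p = 0.0254), so that replicate 3 at 24 months was only slightly above the highest 15-month library. At 6 months these GTPase genes were at levels near or somewhat above those of 15 months (Tgtp1 57.8 to 93.9, Gbp5 66.2 to 117 and Gbp4 156 to 316), and at 30 months at levels within the range of 24 months (Tgtp1 261 to 460.5, Gbp5 186 to 287 and Gbp4 637 to 865). Tgtp1 passed in all 16 fits that left out a library, with a highest adjusted p of 0.0473. Gbp5 failed without 15-month replicate 2 or 24-month replicate 2 (highest adjusted p 0.0568), and Gbp4 without 15-month replicates 2, 3 or 4 or 24-month replicates 2 or 4 (highest adjusted p 0.0808).

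Further GTPases rose, and were named after their values were seen. Gbp9 had a log2 fold change of 1.39 ± 0.26 (adjusted p = 0.0169), Gvin1 of 1.0 ± 0.24 (adjusted p = 0.0414), and the sparsely expressed Gbp8 and Gvin3 of 2.24 ± 0.46 (adjusted p = 0.0229) and 2.27 ± 0.42 (adjusted p = 0.0169).

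Of 32 tested members of a list of interferon-stimulated genes, 9 rose and none fell, and 31 of the 32 log2 fold changes were above 0, with a median of 0.90. Over all genes tested 1.17% rose, the median was 0.00, and 7412 of 14561 were above 0. The 9 were Ifit1, Ifit2, Stat2, Zbp1, Rtp4, Gbp3, Igtp, Iigp1 and Parp14. Zbp1, which senses nucleic acid in the left-handed Z conformation and can start inflammatory cell death, went from 11.5, 2.95, 5.96 and 10.2 normalised counts at 15 months to 101, 30.6, 20.2 and 38.6 at 24 months, a log2 fold change of 2.36 ± 0.48 (adjusted p = 0.0222). Igtp, another immunity-related GTPase, was at 224, 214, 171 and 256 and at 1024, 459, 279 and 577 (log2 fold change 1.29 ± 0.27, adjusted p = 0.0229). Ifit2, which binds viral RNA, was at 117, 57.6, 103 and 79.2 and at 239, 176, 148 and 187 (log2 fold change 1.09 ± 0.21, adjusted p = 0.0186). In all 3 genes the groups did not overlap. Stat2, the transcription factor of type I interferon signalling, rose by less, with a log2 fold change of 0.79 ± 0.18 (adjusted p = 0.0284). The number of members that rose was 0 without 24-month replicate 2 and 0 without replicate 4, 2 without replicate 1, 18 without replicate 3 of the same age, 1 and 3 without 15-month replicates 2 and 3, and 18 without 30-month replicate 3.

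**Figure D3:**
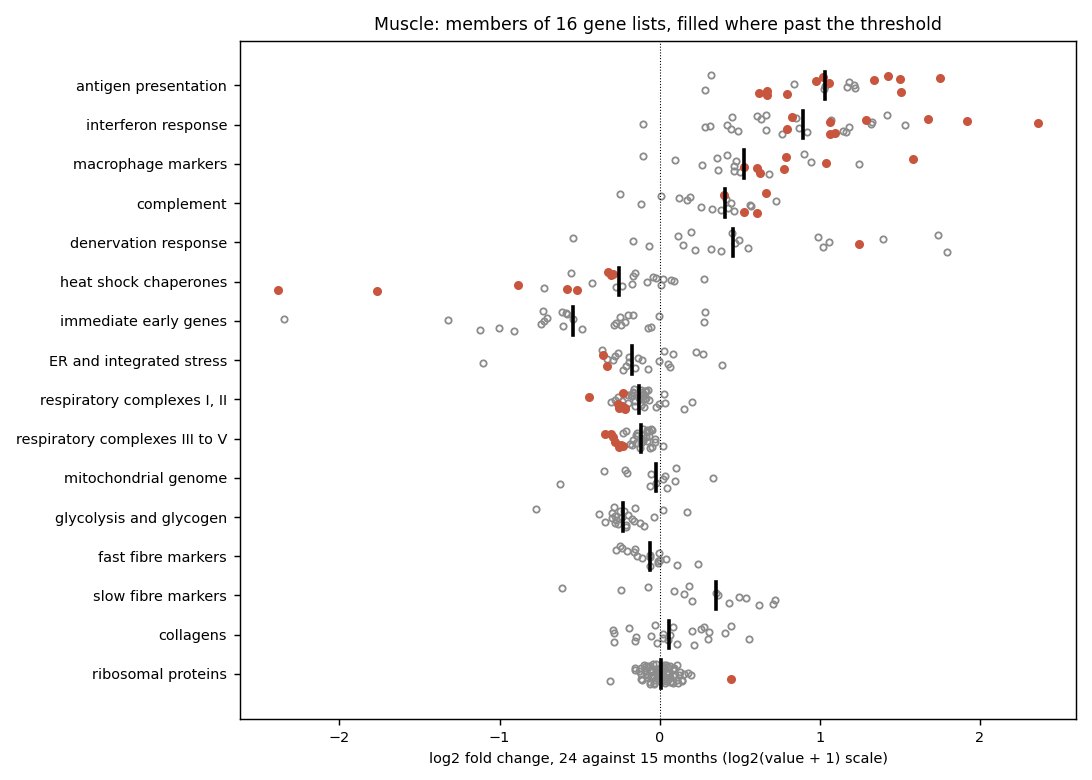
Log2 fold change at 24 against 15 months (horizontal axis) of each tested member of 16 gene lists (rows), filled red where the member passed the threshold; black bars are medians. Antigen presentation (median 1.03) and interferon response (median 0.90) lie furthest to the right, and the Hspa1b point (-2.39) in the heat shock row furthest to the left.

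Antigen presentation was the list with the most members called. Of 21 tested genes 12 rose, where 1.17% of all genes tested did. None of the 21 fell and all 21 log2 fold changes were above 0, with a median of 1.03. Among the class I heavy chains, H2-K1 was at 1505, 1737, 1506 and 1801 normalised counts in the 15-month replicates and at 3617, 3026, 2448 and 2400.1 in the 24-month replicates, a log2 fold change of 0.79 ± 0.12 (adjusted p = 0.00409). H2-Q4 was at 292, 353, 237 and 330.4 and at 1168, 828, 569 and 601 (log2 fold change 1.34 ± 0.19, adjusted p = 0.00409), and H2-Q7 at 173, 145, 137 and 182 and at 801, 688, 345 and 429 (log2 fold change 1.75 ± 0.26, adjusted p = 0.00409). The older libraries were all above the younger ones in the 3 genes, and each passed in all 16 fits that left out a library. H2-D1 and H2-T23 rose with log2 fold changes of 0.67 and 0.98 (adjusted p = 0.0115 and 0.0337).

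The partners of the class I heavy chains rose as well. B2m, the light chain that every class I molecule needs, was at 2066, 2424, 2183 and 2315 normalised counts at 15 months and at 4637, 3684, 2605 and 3191 at 24 months (log2 fold change 0.62 ± 0.15, adjusted p = 0.0386). Tap1, a chain of the transporter that carries peptides into the endoplasmic reticulum, was at 88.0, 45.8, 77.5 and 92.8 and at 547, 193, 111 and 166 (log2 fold change 1.50 ± 0.35, adjusted p = 0.0337). Its partner Tap2 had a log2 fold change of 0.67 ± 0.15 (adjusted p = 0.0314). Psmb9, a catalytic subunit of the immunoproteasome, was at 47.2, 35.5, 40.3 and 40.7 and at 181, 114, 76.3 and 96.4 (log2 fold change 1.42 ± 0.23, adjusted p = 0.0094), and Psmb8, another such subunit, rose by 1.02 on the log2 scale (adjusted p = 0.0247). In all 5 of these genes the 24-month libraries lay wholly above the 15-month ones. Of 33 tested genes of the proteasome list none passed in either direction (median -0.03). From class II, H2-DMb1, a chain of the peptide exchanger, rose (log2 fold change 1.06 ± 0.23, adjusted p = 0.0274). Psmb9 passed in all 16 fits that left out a library, Tap1 in 10 (highest adjusted p 0.0899) and B2m in 9 (highest adjusted p 0.116). Tap1 was lost without 15-month replicates 2, 3 or 4 or 24-month replicates 1, 2 or 4, and B2m without the same 6 or 15-month replicate 1. Of the list, 6 or 7 members rose without 15-month replicates 2, 3 or 4 or 24-month replicates 1, 2 or 4, and 19 without 30-month replicate 3.

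The promoters of the genes that rose held the letters of an interferon-stimulated response element more often than those of all genes. The letters GAAA, any 2 bases and GAAA again were searched on either strand, in the window from 250 bases before to 50 after the start of each gene, with sequences from RefSeq (build GRCm38.p6). Of 123 higher genes with a promoter there, 19 held a match, or 15.4%, of 145 lower genes 5, or 3.45%, and of all 10817 tested genes with a promoter 327, or 3.02%. The 19 were Apol10b, Apol9b, B2m, Brca2, Cd59a, Ctss, Cybb, Gbp3, Gbp5, H2-T22, H2-T23, Ifi213, Ifih1, Ifit1, Igtp, Plxnc1, Stat2, Tgtp1 and Tgtp2. A match is a description of letters, not a shown binding site, and the shares were not tested. The windows of Tgtp1 (chr11:48992197-48992496, minus strand) and Gbp5 (chr3:142496684-142496983, plus strand) are shown because these were the highest GTPase genes with a match. Capitals mark the response element and the letters TTCNNNGAA of a STAT site, a motif described further with Cish; the motifs searched share the short letter groups GAA and TTC.
Tgtp1: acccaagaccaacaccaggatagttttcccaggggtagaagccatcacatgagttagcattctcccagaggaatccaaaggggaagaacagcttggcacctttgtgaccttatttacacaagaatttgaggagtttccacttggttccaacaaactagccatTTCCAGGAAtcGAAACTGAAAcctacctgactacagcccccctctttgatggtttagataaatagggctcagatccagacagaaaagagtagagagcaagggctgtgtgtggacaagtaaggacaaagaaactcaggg
Gbp5: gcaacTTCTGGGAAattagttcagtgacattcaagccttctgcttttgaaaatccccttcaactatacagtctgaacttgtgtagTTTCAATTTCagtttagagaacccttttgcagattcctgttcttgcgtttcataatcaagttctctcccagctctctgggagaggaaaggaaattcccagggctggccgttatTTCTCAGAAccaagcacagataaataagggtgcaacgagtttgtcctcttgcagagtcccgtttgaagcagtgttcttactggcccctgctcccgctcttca

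Macrophage markers rose between the same ages. Of 21 tested markers 7 rose and none fell (Csf1r, Lyz2, C1qa, C1qb, Mpeg1, Trem2 and Ctss), with a median log2 fold change of 0.53. Of all genes tested 1.17% rose. Lyz2, a lysozyme of macrophages and neutrophils, was at 1693, 1265, 1105 and 1286 normalised counts at 15 months and at 2040.2, 2857, 2017 and 2216 at 24 months, a log2 fold change of 0.77 ± 0.15 (adjusted p = 0.0186). Csf1r, the receptor that macrophages need to survive, was at 643, 397, 450.3 and 419 and at 662, 841, 701 and 697 (log2 fold change 0.62 ± 0.14, adjusted p = 0.0281). Neither gene overlapped between the ages, although 15-month replicate 1 came close to the lowest 24-month library in Csf1r. Mpeg1, a pore-forming protein of macrophages, was at 121, 91.6, 115 and 90.5 and at 233, 284, 119 and 268 (log2 fold change 1.04 ± 0.21, adjusted p = 0.0214), with 24-month replicate 3 inside the younger range. Ctss, a lysosomal protease that trims the class II invariant chain, was at 203, 196, 164 and 181 and at 320.5, 361, 242 and 381 (log2 fold change 0.79 ± 0.17, adjusted p = 0.027). In a bulk sample more cells of a type and more RNA per cell cannot be told apart.

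The summed level of the 21 markers was 4688 to 6391 normalised counts at 15 months and 6893 to 9302 at 24 months, so the libraries of the 2 ages did not overlap, and at 6 and 30 months it was 4306 to 5366 and 7025 to 10241. Macrophages themselves express class I MHC and interferon-induced genes, and their part in the rise of those genes was not tested. Of the 24-month libraries, replicate 1 was highest in Gbp4 and Tap1 but lowest in Csf1r. Replicate 3 was lowest in Gbp4, Tap1, Lyz2, Mpeg1 and Ctss. Marker calls were sensitive to single libraries: none of the markers passed without 15-month replicate 2 or without 24-month replicates 2 or 4, 1 passed without 15-month replicates 3 or 4 or 24-month replicate 1, and 9 rose without 30-month replicate 3.

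Markers of other white blood cells gave no calls with all libraries in the fit. The summed level of 18 T and natural killer cell markers was 19.4 to 29.5 normalised counts at 15 months and 34.8 to 66.2 at 24 months; Gzmk was at 0 in all 8 libraries, and none of the 18 had enough reads to be tested, while without 30-month replicate 3 there were 3 tested and 1 of them rose. The B and plasma cell markers summed to 2366 to 5135 at 15 months and 3459 to 6076 at 24 months, and none of 8 tested passed, although all 8 log2 fold changes were above 0 (median 1.32). Igkc, the immunoglobulin kappa constant chain, was at 67.6 to 151 at 15 months and at 196, 1414, 601 and 221 in the 24-month replicates (log2 fold change 2.09 ± 0.98, adjusted p = 0.271), with replicate 2 far above the other older libraries. None of the 3 tested neutrophil markers passed, and the sums overlapped widely (34.3 to 171 at 15 months and 15.7 to 137 at 24 months).

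Complement genes rose in 4 of 20 tested, with none lower (median log2 fold change 0.41), where 1.17% of all genes tested rose. C1qa and C1qb, chains of the recognition molecule of the classical pathway and members of the macrophage list too, had log2 fold changes of 0.61 ± 0.15 (adjusted p = 0.0436) and 0.53 ± 0.13 (adjusted p = 0.0414). Cd59a, which blocks assembly of the membrane attack complex on a cell's own surface, was at 334, 339.8, 303 and 397 normalised counts at 15 months and at 470.4, 468, 391 and 479 at 24 months (log2 fold change 0.40 ± 0.10, adjusted p = 0.0382). Its groups overlapped, since 24-month replicate 3 was below 15-month replicate 4. Masp1, a protease of the lectin pathway, was at 42.1, 35.5, 43.2 and 54.3 and at 68.9, 61.3, 75.1 and 71.8 (log2 fold change 0.66 ± 0.17, adjusted p = 0.0498). No complement gene passed without 6-month replicate 2, 15-month replicates 2 or 3 or 24-month replicates 1, 2 or 4, and 2 passed without any other single library, except that 10 rose without 30-month replicate 3 and 4 without 30-month replicate 4. No chemokine or cytokine passed among 20 tested, although 2 rose without 30-month replicate 3, and none of 21 tested p53 and senescence genes did (median log2 fold changes 0.08 and 0.00).

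Krt18 and Myh3 rose, and both were highest in replicate 4 of the 24-month libraries. Krt18, an intermediate filament keratin of simple epithelia, was nearly silent in young muscle, at 7.65, 14.8, 7.45 and 15.8 normalised counts at 15 months, and reached 61.2, 77.1, 26.9 and 343 at 24 months, the largest log2 fold change of the named genes at 2.81 ± 0.58 (adjusted p = 0.0229). It was at 5.31 to 23.2 at 6 months and 143 to 291 at 30 months, so that 24-month replicate 4 alone was at the level of the oldest group. The call was lost without 15-month replicate 3 or 24-month replicates 1, 2 or 4 (highest adjusted p 0.0688). Myh3, the embryonic myosin heavy chain found in regenerating and denervated fibres, was at 44.6, 54.7, 71.6 and 49.8 and at 133, 105, 89.7 and 229 (log2 fold change 1.24 ± 0.30, adjusted p = 0.04), again highest in 24-month replicate 4. It was the only one of 20 tested denervation genes to pass at 24 against 15 months (list median 0.46), and it passed in 7 of the 16 fits that left out a library (highest adjusted p 0.111). Chrna1, the alpha subunit of the acetylcholine receptor, did not pass, at 297, 242, 261 and 276 and 376, 345, 290.4 and 717 (log2 fold change 0.59 ± 0.19, adjusted p = 0.104), and Runx1, a transcription factor of denervated muscle, did not either (log2 fold change 0.55 ± 0.26, adjusted p = 0.283). In both genes replicate 4 was the highest of the 24-month libraries.

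At the neuromuscular junction 1 of 16 tested genes passed, and without 30-month replicate 3 there were 2 that rose and 2 that fell. Musk, the receptor kinase that organises acetylcholine receptors under the nerve, fell from 648, 752, 734 and 714 normalised counts at 15 months to 511, 531, 576 and 576 at 24 months (log2 fold change -0.38 ± 0.09, adjusted p = 0.0414). At 6 months it was at 419.7 to 505, below every 15-month library. The call was lost in 9 of the 16 fits that left out a library (highest adjusted p 0.123). Of 16 tested cell cycle genes 2 rose, both at low levels: Top2a, the topoisomerase of dividing cells, was at 2.55, 1.48, 5.96 and 5.66 and at 21.5, 17.8, 13.5 and 10.7 (log2 fold change 1.86 ± 0.39, adjusted p = 0.0238), and Mki67 at 17.9, 17.7, 11.9 and 7.92 and at 32.7, 31.6, 22.4 and 32.1 (log2 fold change 1.10 ± 0.27, adjusted p = 0.0431). Their 6-month ranges, 6.85 to 19.5 and 19.0 to 25.9, reached above the 15-month ones. Of all genes tested 1.17% rose at 24 against 15 months.

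The lowest log2 fold changes were led by heat shock chaperones. The 12 lowest genes by the same rule were Hspa1b, Cish, Hspa1a, Banp, Irs1, Rcan1, mt-Rnr1, Hsp90aa1, Serpinh1, Npnt, Ripor2 and Odc1.

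**Figure D4:**
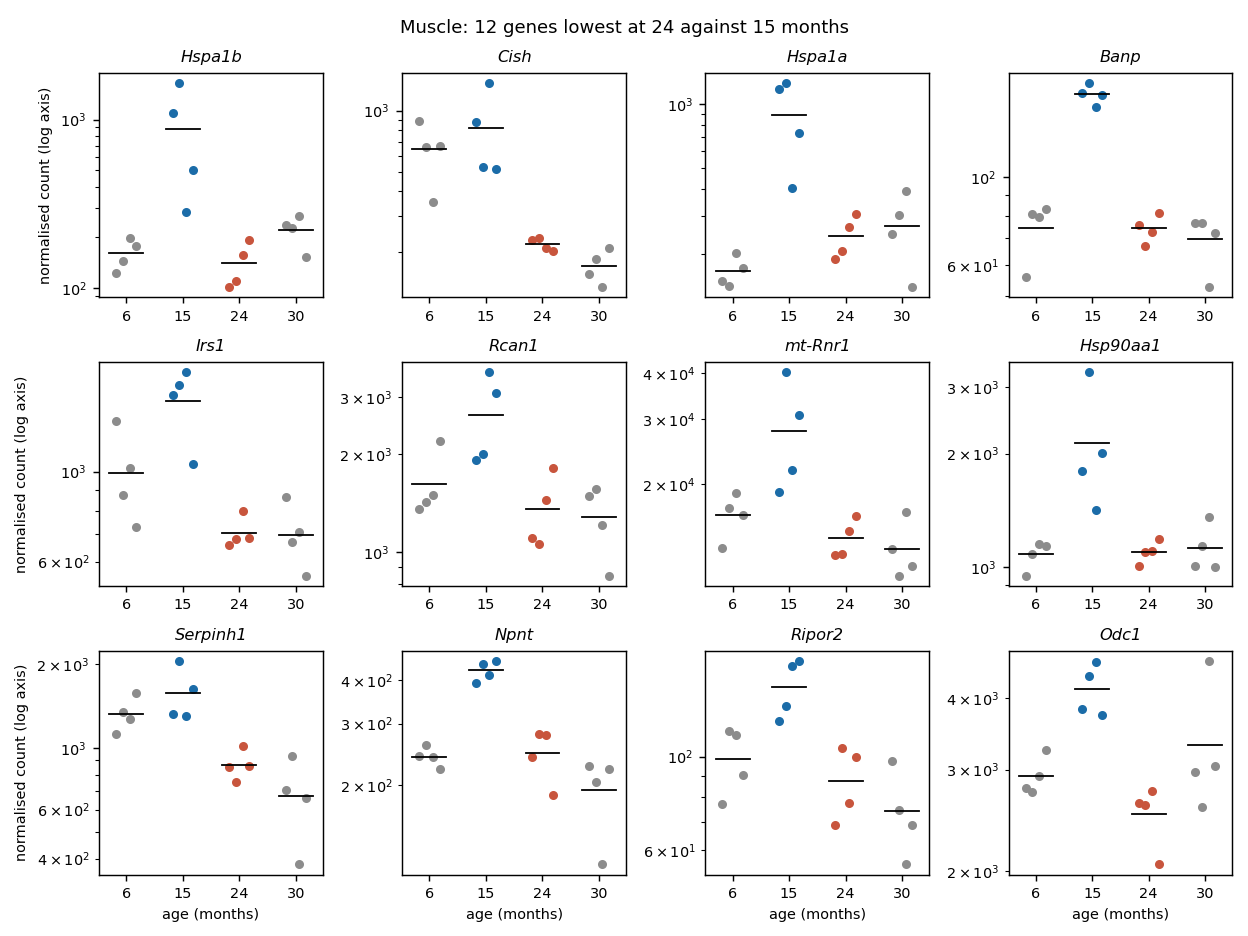
Normalised counts (log axis) of the 12 lowest genes against age in months, with each point a library and each bar the mean of 4. The 24-month points (red) lie below the 15-month points (blue) in every panel, as the naming rule required. Banp spans 151 to 173 at 15 months, 67.2 to 81.4 at 24 months and 55.8 to 83.0 at 6 months.

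Hspa1b and Hspa1a encode the stress-inducible cytosolic chaperone of the Hsp70 family and are near-identical copies whose reads can be exchanged. Hspa1b was at 1096, 1638, 283 and 503 normalised counts in the 15-month replicates and at 102, 109.7, 157 and 192 in the 24-month replicates, a log2 fold change of -2.39 ± 0.39 (adjusted p = 0.0094). Hspa1a was at 1173, 1244, 407 and 729.8 and at 189.5, 206, 266 and 307 (log2 fold change -1.77 ± 0.32, adjusted p = 0.0144). Replicates 1 and 2 were the highest at 15 months in both genes, and the groups did not overlap, as the naming rule required. The 6-month libraries (123 to 198 for Hspa1b) were near the 24-month level, and at 15 against 6 months the log2 fold change of Hspa1b was 2.16 ± 0.39 (adjusted p = 0.0225), in a comparison that shares the 15-month libraries. The 15-month libraries thus lay above those of both neighbouring ages.

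Of 24 tested chaperones 8 fell and none rose, with a median log2 fold change of -0.26, where 1.23% of all genes tested fell. Hsp90aa1, the inducible cytosolic chaperone of the Hsp90 family, was at 1802, 3284, 1416 and 2014 normalised counts at 15 months and at 1009, 1101, 1107 and 1189 at 24 months (log2 fold change -0.88 ± 0.18, adjusted p = 0.0214). Hspa8, the constitutive relative of Hspa1a, was at 22446, 27325, 20197 and 25286 and at 15323, 16396, 17372 and 17182 (log2 fold change -0.52 ± 0.09, adjusted p = 0.0133). Replicate 2 was the highest 15-month library in both. Hsph1, a nucleotide exchange factor of these chaperones, was at 1222, 2028, 1167 and 1510.5 and at 872, 1044, 990.1 and 975 (log2 fold change -0.58 ± 0.14, adjusted p = 0.0386), again with replicate 2 highest. Smaller falls were found in Stip1, which links the Hsp70 and Hsp90 chaperones (log2 fold change -0.33 ± 0.08, adjusted p = 0.0414), in Hspe1, the mitochondrial co-chaperonin (log2 fold change -0.31 ± 0.07, adjusted p = 0.0319), and in Chordc1 (log2 fold change -0.29 ± 0.07, adjusted p = 0.0409). Small heat shock proteins of muscle did not pass: Cryab had a log2 fold change of -0.03 ± 0.12 (adjusted p = 0.934), Hspb6 of 0.07 ± 0.11 (adjusted p = 0.778) and Hspb8 of 0.02 ± 0.09 (adjusted p = 0.929). Hspa1b and Hspa8 passed in all 16 fits that left out a library, while Hsp90aa1 failed without 24-month replicates 1, 2 or 4 (highest adjusted p 0.0649). The number of chaperones that fell was 2 without 24-month replicate 2, 3 without replicate 1 or 4, 4 without replicate 3, 4 without 15-month replicate 2 or 4, and 5 without 6-month replicate 2 or 3; it was 10 without 30-month replicate 3.

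The heat shock element was sought as the letter groups GAA, TTC and GAA, with any 2 bases between neighbouring groups, on either strand of the same promoter windows. It was found in 4 of 145 lower genes (2.76%), which were Chordc1, Hspe1, Hsph1 and Mettl23, in 1 of 123 higher genes (0.813%) and in 49 of 10817 tested genes (0.453%). The other chaperones that fell, Hspa1b, Hspa1a, Hsp90aa1, Hspa8 and Stip1, had no match or no window. The shares were not tested. The windows of Hspe1 (chr1:55087898-55088197, plus strand) and Hsph1 (chr5:149636287-149636586, minus strand) are shown with the element in capitals. In Hspe1 a match on each strand overlaps the other, and in Hsph1 the match lies on the strand opposite to the gene at the end of the window.
Hspe1: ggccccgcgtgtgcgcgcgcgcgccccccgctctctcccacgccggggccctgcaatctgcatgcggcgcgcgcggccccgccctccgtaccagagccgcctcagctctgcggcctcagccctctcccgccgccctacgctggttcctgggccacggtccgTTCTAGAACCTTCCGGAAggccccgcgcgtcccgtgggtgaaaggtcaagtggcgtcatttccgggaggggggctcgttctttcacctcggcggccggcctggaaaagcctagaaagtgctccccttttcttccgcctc
Hsph1: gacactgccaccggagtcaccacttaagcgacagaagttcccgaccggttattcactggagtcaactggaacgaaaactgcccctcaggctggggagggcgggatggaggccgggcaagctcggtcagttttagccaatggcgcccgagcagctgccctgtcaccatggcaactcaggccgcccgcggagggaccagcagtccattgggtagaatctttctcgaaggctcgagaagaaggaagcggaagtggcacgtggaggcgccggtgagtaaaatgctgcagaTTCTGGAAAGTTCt

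Other genes of acute responses mostly did not pass. Of 27 tested immediate early genes, which many stimuli switch on rapidly, none passed, although 25 had log2 fold changes below 0 (median -0.54). Fos was at 1807, 363, 240.05 and 268 normalised counts at 15 months and at 343, 268, 225 and 162 at 24 months (log2 fold change -0.91 ± 0.56, adjusted p = 0.404), so that 15-month replicate 1 alone was high. Egr1 was at 3215, 341, 280.3 and 275 and at 487, 435, 248 and 301 (log2 fold change -0.60 ± 0.75, adjusted p = 0.718), with the same replicate alone high. Without that library 9 of the chaperones fell. At 15 months Hspa1a and Hspa1b were highest in replicates 1 and 2, and Hsp90aa1 and Hspa8 in replicate 2. How the chaperone values relate to those of the immediate early genes was not tested. Of 24 tested genes of the endoplasmic reticulum and integrated stress responses, Hspa5, the main chaperone of that compartment, and Manf, a secreted stress protein, fell (log2 fold changes -0.33 ± 0.08 (adjusted p = 0.0336) and -0.35 ± 0.09 (adjusted p = 0.0464)), and 6 fell without 30-month replicate 3.

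A chaperone and 2 enzymes of collagen folding fell, but no collagen passed. Serpinh1, the collagen-specific chaperone, was at 1319, 2048, 1299 and 1630.4 normalised counts at 15 months and at 850.4, 754, 1017 and 858 at 24 months (log2 fold change -0.84 ± 0.21, adjusted p = 0.0437), below every 15-month library. P4ha1 and P4ha2, catalytic subunits of prolyl hydroxylase, had log2 fold changes of -0.53 ± 0.12 (adjusted p = 0.0311) and -0.48 ± 0.12 (adjusted p = 0.0394). None of 24 tested collagens passed at 24 against 15 months (median 0.06). At 30 against 6 months, with 30-month replicate 3 in the fit, 19 of the 24 were lower, where 6.92% of all genes were. At 15 against 6 months 3 of the 24 were lower (median -0.56), where 29 of all 14561 genes were. Serpinh1 passed in only 3 of the 16 fits that left out a library (highest adjusted p 0.133), and none of the 3 genes passed without any single 24-month library.

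Genes of cytokine and insulin signalling were among the lower ones. Cish, a feedback inhibitor of cytokine receptors that is switched on by STAT5, was at 876, 524, 1364 and 517 normalised counts at 15 months and at 229, 234, 209.7 and 202 at 24 months (log2 fold change -1.78 ± 0.28, adjusted p = 0.00706). The 24-month libraries lay close together and, as the naming rule required, below all 15-month ones. The call held in all 16 fits that left out a library. The 6- and 30-month libraries were at 354 to 893 and 135 to 209. Jak2, Jak1 and Socs2, also of JAK-STAT signalling, were named after their values were seen and are no tally of that pathway, of which Stat2 rose as given above. Jak2, a kinase of cytokine and growth hormone receptors, was at 1212, 1432, 1232 and 1129 and at 815, 901, 900.4 and 831 (log2 fold change -0.53 ± 0.08, adjusted p = 0.00409), and Jak1 at 3445, 3513, 3584 and 3629.7 and at 2872, 2908, 2956 and 2929 (log2 fold change -0.28 ± 0.05, adjusted p = 0.0178). Socs2, a feedback inhibitor of growth hormone signalling, had a log2 fold change of -0.59 ± 0.15 (adjusted p = 0.0414). In all 4 genes the groups did not overlap.

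The window before Cish (chr9:107296409-107296708, plus strand) is shown because it holds the letters TTCNNNGAA of a STAT site 2 times, in capitals. That motif reads the same on both strands in its fixed letters and was found in 12 of 145 lower genes (8.28%), 9 of 123 higher genes (7.32%) and 725 of 10817 tested genes (6.7%). These shares were not tested either.
Cish: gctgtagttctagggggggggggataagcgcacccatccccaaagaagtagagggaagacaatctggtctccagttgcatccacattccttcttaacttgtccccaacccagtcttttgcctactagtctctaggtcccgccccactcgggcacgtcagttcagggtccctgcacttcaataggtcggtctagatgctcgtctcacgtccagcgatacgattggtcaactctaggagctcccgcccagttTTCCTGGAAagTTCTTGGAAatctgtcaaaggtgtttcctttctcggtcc

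Irs1, the docking protein of the insulin receptor, fell from 1548, 1631, 1758 and 1044 normalised counts at 15 months to 661, 681, 801 and 688 at 24 months (log2 fold change -1.06 ± 0.18, adjusted p = 0.0104). The younger libraries were all above the older ones, as the naming rule required, and the call held in all 16 fits that left out a library. Of 22 tested genes of insulin action and glucose uptake it and Pdha1, a subunit of pyruvate dehydrogenase (log2 fold change -0.19 ± 0.05, adjusted p = 0.0498), were the 2 that passed. Nr3c1, the glucocorticoid receptor, was at 1666, 2216, 2515 and 1895 and at 1509, 1532, 1389 and 1663 (log2 fold change -0.43 ± 0.10, adjusted p = 0.0337), with 24-month replicate 4 only just below 15-month replicate 1. Mstn, the secreted inhibitor of muscle growth, was at 1552, 1799, 1521 and 1513 and at 1165, 1298, 1209 and 907 (log2 fold change -0.49 ± 0.11, adjusted p = 0.0357). Mstn was the 1 of 21 tested atrophy and autophagy genes to pass, with 2 lower without 30-month replicate 3. It was lost without any single library of 15 or 24 months (highest adjusted p 0.0989), and Nr3c1 without 15-month replicates 2, 3 or 4 or any 24-month library (highest adjusted p 0.0941).

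Banp, Npnt and Ripor2 were higher in every 15-month library than in any library of the other ages. Banp, a nuclear protein that binds unmethylated CG-rich promoters, was at 163, 173, 151 and 162 normalised counts at 15 months, at 75.8, 67.2, 72.9 and 81.4 at 24 months (log2 fold change -1.12 ± 0.14, adjusted p = 0.00188), and at 55.8 to 83.0 and 52.8 to 76.8 at 6 and 30 months. The call held in all 16 fits that left out a library. Npnt, nephronectin, an integrin ligand of the matrix, was at 392, 445, 413 and 453 and at 240.4, 279.6, 278 and 187 (log2 fold change -0.80 ± 0.17, adjusted p = 0.0247), with 222 to 260.3 at 6 months. Rcan1, an inhibitor of calcineurin, was at 1917, 2006, 3579.8 and 3079.8 and at 1105, 1064, 1449.9 and 1816 (log2 fold change -0.94 ± 0.23, adjusted p = 0.0446). The 15-month range of Rcan1 overlapped that of 6 months, where replicate 4 was at 2197. Odc1, the rate-limiting enzyme of polyamine synthesis, was at 3828, 4361, 4626 and 3738 and at 2628, 2605, 2756 and 2053 (log2 fold change -0.72 ± 0.14, adjusted p = 0.0185), and Ripor2 had a log2 fold change of -0.74 ± 0.19 (adjusted p = 0.0464). For Odc1, 30-month replicate 3 was at 4637, above every 15-month library. Npnt passed in 10, Rcan1 in 6, Odc1 in 12 and Ripor2 in 4 of the 16 fits that left out a library, and each failed without 24-month replicate 2 (highest adjusted p 0.0744, 0.14, 0.0582 and 0.139 over all fits).

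Nuclear genes of the respiratory chain fell by small amounts. Of 41 tested genes listed for complexes I and II 7 fell and none rose, with 37 log2 fold changes below 0 and a median of -0.13. The 7 were Ndufa2, Ndufa3, Ndufa4, Ndufa7, Ndufa11, Ndufc1 and Ndufs7. Over all genes tested 1.23% fell, and 7149 of 14561 log2 fold changes were below 0. Ndufc1 was at 1525, 1511, 1515 and 1533 normalised counts at 15 months and at 1081, 1093, 1139 and 1168 at 24 months (log2 fold change -0.44 ± 0.07, adjusted p = 0.0094), with groups far apart relative to their spread, and its call held in all 16 fits that left out a library. Of 37 tested genes of complexes III to V 7 fell and none rose, with 36 below 0 and a median of -0.12: Uqcrq, Uqcrfs1 and Uqcr10 of complex III, Cox5a and Cox8b of complex IV, and Atp5e and Atp5g1 of the ATP synthase. Atp5e was at 3404, 3277, 3295 and 3492 and at 2759.6, 2583, 2771 and 2775 (log2 fold change -0.31 ± 0.05, adjusted p = 0.0116), again without overlap. Cox5a was at 5618, 5339, 5493 and 5696 and at 4634, 4230.3, 4629 and 4764 (log2 fold change -0.28 ± 0.06, adjusted p = 0.024). Without 30-month replicate 3 the counts were 15 and 10; leaving out a library of 15 or 24 months gave 1 or 2 for complexes I and II, and 0 (24-month replicate 2) to 6 for complexes III to V.

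Of the mitochondrial genome both ribosomal RNAs fell, and none of its 13 protein-coding genes passed (median log2 fold change -0.02), and their share of all normalised counts was 15.5% to 17.6% at 15 months and 16.6% to 17.3% at 24 months. The small ribosomal RNA mt-Rnr1 fell from 18998, 40190.1, 21795 and 30788 normalised counts to 12848, 12942, 14984 and 16418 (log2 fold change -0.91 ± 0.19, adjusted p = 0.0229), with 15-month replicate 2 the highest. The large one, mt-Rnr2, named after its values were seen, had a log2 fold change of -0.60 ± 0.14 (adjusted p = 0.0337) with overlapping groups. Their joint share was 0.222% to 0.447% at 15 months and 0.177% to 0.234% at 24 months. The library kit selects polyadenylated RNA. The mt-Rnr1 call was lost without 15-month replicates 2 or 4 or 24-month replicates 1 or 2 (highest adjusted p 0.0808).

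Few genes of the contractile fibre passed. Among 18 fast fibre markers and 15 slow fibre markers none passed, although 3 fast fibre markers were lower without 30-month replicate 3; the medians were -0.06 and 0.35. Myh4 had a log2 fold change of -0.06 ± 0.10 (adjusted p = 0.811) and Myh7 of 0.62 ± 0.42 (adjusted p = 0.462), and the 6-month libraries spanned 1218 to 8924 normalised counts for Myh7. Of 30 sarcomere genes Unc45b, the chaperone of myosin, fell from 5390.1, 5599, 4963 and 5459 to 4014, 4073, 3989.7 and 4093 (log2 fold change -0.40 ± 0.05, adjusted p = 0.00188), a call that held in all 16 fits that left out a library; 2 sarcomere genes fell without 30-month replicate 3. Of 19 genes of the dystrophin complex and membrane repair Nos1, the neuronal nitric oxide synthase anchored there (log2 fold change -0.54 ± 0.11, adjusted p = 0.0251), and Ano5, a membrane repair protein (log2 fold change -0.37 ± 0.08, adjusted p = 0.0324), fell without overlap of the groups. No calcium handling gene passed among 22 tested (3 were lower without 30-month replicate 3), with Atp2a1, the fast calcium pump, at a log2 fold change of -0.14 ± 0.11 (adjusted p = 0.51). None of 24 tested glycolysis and glycogen genes passed (median -0.23, with 22 below 0), but 13 were lower without 30-month replicate 3. Gapdh had a log2 fold change of -0.28 ± 0.08 (adjusted p = 0.0647) and, without that library, an adjusted p of 0.0162.

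Markers of the other cells of muscle gave no calls. None passed among 13 satellite cell, 16 fibro-adipogenic, 15 endothelial, 12 mural, 14 adipocyte, 12 Schwann, 14 tendon, 7 red cell and 3 epidermal markers tested, and their medians lay between 0.01 and 0.33. Summed levels overlapped between the ages in each of these lists. The endothelial markers, for example, summed to 19433 to 22596 normalised counts at 15 months and 19045 to 23042 at 24 months. All 12 Schwann, 7 red cell and 3 epidermal log2 fold changes were above 0, as were 12 of the 14 tendon ones. In the satellite cell, fibro-adipogenic, endothelial, mural and adipocyte lists 8 or 9 markers each were above 0. Of 81 ribosomal protein genes 1 rose, Rpl3, a core protein of the large subunit, from 1088, 1068, 1099 and 1269 to 1518, 1612, 1339 and 1707 (log2 fold change 0.45 ± 0.10, adjusted p = 0.0324), while the list's median was 0.01; 1 more, lower, passed without 30-month replicate 3. Per3 of the circadian clock rose (log2 fold change 0.50 ± 0.10, adjusted p = 0.0222), the single call among 22 clock genes. The cold-inducible RNA-binding proteins Cirbp and Rbm3, named after their values were seen, rose with log2 fold changes of 0.61 ± 0.12 (adjusted p = 0.0186) and 0.44 ± 0.10 (adjusted p = 0.0337). Of anabolic signalling (22 tested), glucocorticoid and metallothionein genes (17) and polyamine genes (13), Irs1, Nr3c1 and Odc1 were the calls with all libraries; without 30-month replicate 3 there were 2 lower in anabolic signalling, 1 higher and 1 lower among the glucocorticoid and metallothionein genes, and 4 lower among the polyamine genes. None passed among 21 genes of mitochondrial biogenesis and dynamics and 25 of fatty acid oxidation, with medians of -0.15 and -0.07; 1 of the former was lower without 30-month replicate 3. Prdx1, a peroxide-reducing enzyme, fell (log2 fold change -0.23 ± 0.05, adjusted p = 0.0279) as the 1 of 21 tested iron and redox genes, where 1 rose and 2 fell without 30-month replicate 3.

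The comparison of 30 with 6 months uses none of the 8 libraries and so gives values of the same genes in other samples of this muscle. Of the 171 genes higher at 24 than at 15 months, 83 were higher at 30 than at 6 months (48.5%) and 1 was lower; of all genes tested 6.15% were higher in that comparison. Of the 179 lower genes 81 were lower at 30 against 6 months (45.3%) and 3 were higher, with 6.92% of all genes lower. Without 30-month replicate 3, 88 of the 171 were higher (against 5.51% of all genes) and 69 of the 179 were lower (against 5.32%), values that were added after the data were seen. The spread is estimated from all 16 libraries in both comparisons. The higher genes shared by both included the GTPases and class I genes: Tgtp1 had a log2 fold change of 2.32 ± 0.37 at 30 against 6 months (adjusted p = 0.00111), H2-Q7 of 2.24 ± 0.26 (adjusted p = 7.94e-05) and Krt18 of 4.32 ± 0.58 (adjusted p = 0.000295). Among the lower ones Cish had -1.85 ± 0.28 (adjusted p = 0.000777).

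Hspa1b, Hspa1a and Hsp90aa1 did not pass at 30 against 6 months. Hspa1b had a log2 fold change of 0.45 ± 0.39 there (adjusted p = 0.49) and Hsp90aa1 of 0.05 ± 0.18 (adjusted p = 0.886). Of the 24 chaperones 2 were higher and 1 lower at 30 against 6 months, near the shares of all genes tested there (6.15% higher and 6.92% lower). At 24 against 15 months 8 were lower, where 1.23% of all genes were. Banp, Rcan1 and Irs1 did not pass at 30 against 6 months either (log2 fold changes -0.10, -0.35 and -0.48, adjusted p = 0.708, 0.353 and 0.0835). Musk went the other way, at 0.47 ± 0.09 (adjusted p = 0.00419). Of the denervation list 8 of 20 genes were higher at 30 against 6 months. The adjacent steps, which share libraries with the change described here, had 88 calls from 6 to 15 months (0.604% of genes tested) and none from 24 to 30 months in the limma fit, where 1902 genes had an unadjusted p below 0.05. The step from 24 to 30 months holds the outlying 30-month replicate 3 in its mean and its spread. A count without that library is not given, so the absence of calls does not show that nothing changed.

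**Figure D5:**
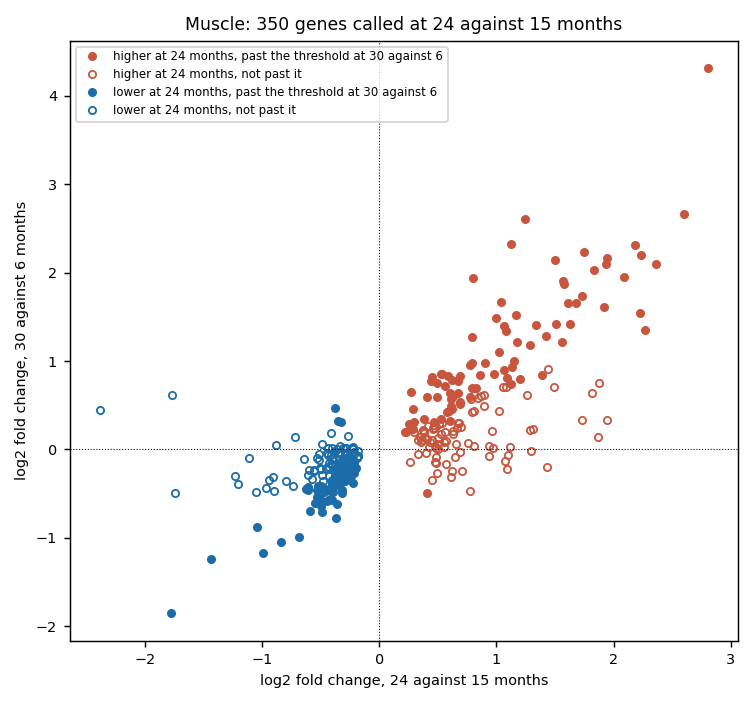
Log2 fold change at 30 against 6 months (vertical axis) and at 24 against 15 months (horizontal axis) of the 350 called genes, filled where the gene also passed at 30 against 6 months. Of the 171 higher genes (red) 149 lie above 0 on the vertical axis and of the 179 lower genes (blue) 159 lie below 0; the 2 Hspa1 genes lie far left and above 0.

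Heart is the other striated muscle of the series. No gene of 13528 tested in both tissues passed for a difference between the Muscle change and the Heart change from 15 to 24 months in the limma fit, in which 1329 had an unadjusted p below 0.05; 13 passed without 24-month Heart replicate 4 and 12 with sample quality weights. Of the genes named by rule, Ripor2 was nearest to the threshold, with a difference of -1.08 ± 0.26 on the log2 scale (adjusted p = 0.148). Manf followed with 0.65 ± 0.17 (adjusted p = 0.207). The class I and interferon lists had medians in Heart close to those in Muscle, 1.05 and 0.84, but no member of either passed there, where 31 genes of all (0.217%) passed.

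Against the mean change of the 7 other tissues, 84 of 11444 genes differed (0.734%), 60 more positive in Muscle (0.524%) and 24 more negative (0.21%). Krt18 differed most clearly among the genes named here, with a difference of 2.94 ± 0.49 on the log2 scale (adjusted p = 0.00011). Nr3c1 (-0.48 ± 0.10, adjusted p = 0.00396) and Irs1 (-0.77 ± 0.21, adjusted p = 0.0496) had a more negative change in Muscle than the mean of the others, and Cd59a a more positive one (0.48 ± 0.13, adjusted p = 0.044). The Irs1 log2 fold change was below 0 in each of the 7 other tissues. It was -0.79 in Heart (adjusted p = 0.0536) and -0.52 in Lung (adjusted p = 0.0194). The Irs1 difference from Heart alone did not pass (-0.27 ± 0.26, adjusted p = 0.675). The named GTPases and class I genes did not pass for a difference from the other tissues, which does not show that they changed alike; for Tgtp1 it was 0.74 ± 0.76 (adjusted p = 0.836) and for H2-K1 0.28 ± 0.23 (adjusted p = 0.771). Leaving out a Muscle library of either age gave 32 to 62 genes; the count was 32 without 15-month replicate 3, 33 and 37 without 24-month replicates 2 and 1, 46 without 24-month replicate 4 and 54 each without 15-month replicate 2 and 24-month replicate 3.

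In single tissues the genes that rose in Muscle were called higher most often in kidney and lung. Of 162 of them tested in Kidney 48 were higher (29.6%, against 2.85% of all genes there), and of 167 in Lung 41 (24.6%, against 3.16%). In Liver 13 of 153 were higher (8.5%, against 1.95%), in Brain 10 of 157 (6.37%, against 0.29%) and in Heart 4 of 169 (2.37%, against 0.0909%). In Aorta 6 of 164 were higher and 9 lower (3.66% and 5.49%, against 5.76% and 5.81% of all genes), and 61 of the 164 log2 fold changes were above 0. In Skin none of 16804 genes was called higher, so a count of calls cannot tell these genes from others there. Of the 169 tested in Skin 108 had log2 fold changes above 0. Antigen presentation had 18 of 21 members higher in Kidney, 19 in Lung and 7 in Liver, 4 of 20 in Brain, and none in Aorta, Heart or Skin. In Heart, where few genes passed, all 21 log2 fold changes were above 0 (median 1.05). In Aorta 2 of 21 were above 0 and in Skin 13 of 21.

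The genes that fell in Muscle were called lower most often in lung and kidney. Of 172 tested in Lung 27 were lower (15.7%, against 2.57% of all genes), of 167 in Kidney 23 (13.8%, against 2.14%), of 161 in Liver 16 (9.94%, against 2.53%), of 170 in Brain 12 (7.06%, against 0.383%) and of 175 in Heart 4 (2.29%, against 0.126%). Aorta had 8 of 170 lower and 11 higher (4.71% and 6.47%, against 5.81% and 5.76%). Heat shock chaperones were lower at 24 against 15 months in 16 of 23 tested in Lung and 10 of 22 in Brain. They were lower in 8 of 23 in Kidney, 8 of 21 in Liver and 8 of 24 in Muscle. In Heart 1 of 24 was called lower, with 1 log2 fold change above 0 and a median of -0.41, against -0.26 in Muscle. In Aorta 2 of 23 were lower, with 11 above 0 and a median of -0.07. In Skin 0 of 24 were called, with 6 above 0 and a median of -0.18. The genes of respiratory complexes III to V were lower in 15 of 36 tested in Kidney, 4 of 35 in Liver and 1 of 37 in Aorta. None was called lower in Brain, Heart, Lung or Skin (where 0.202% of all genes were lower). In Heart, where 0.126% of all genes were lower, only 5 of 37 log2 fold changes were above 0. Their median there was -0.22, against -0.12 in Muscle. In Lung 30 of 37 were above 0, in Skin 15 of 37 and in Brain 9 of 36. The labels do not say whether the tissues came from the same mice, so the tissues are not independent samples of ageing.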

How the data were processed

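Gastrocnemius muscle of mice at 6, 15, 24 and 30 months was analysed, with 4 libraries per age. Per the labels' protocols, RNAiso Plus was used for extraction and the Illumina Stranded mRNA Prep for the libraries. Per the submitters' processing notes, the tools were FastQC, STAR, RSEM and DESeq2 (no versions stated) and the build was GRCm39; which gene annotation was used, those sources do not state. The authors deposited a table of signal per tissue, in which each value is a gene's reads divided by a factor of its library: in every Muscle library 100% of the values become whole numbers, within 0.01 reads, when multiplied by that factor. Tables were normalised separately, so tissues are compared only by their changes. No sample column was left unused.

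The values as log2(value + 1) were fitted in limma 3.58.1 (R 4.3.3, eBayes with trend), with 1 mean per age over all 16 Muscle libraries and 12 residual degrees of freedom, on genes that passed filterByExpr (edgeR 4.0.16, minimum count 10). Fold changes are on that scale, which understates changes of low genes. Tests are two-sided with Benjamini-Hochberg adjustment over all genes tested and a threshold of 0.05; a ± is a standard error, with n = 4 libraries per age. Differences from Heart and from the mean of the 7 other tissues are contrasts of the same kind over the libraries of both tissues and of all 8. No pair of libraries of an age agreed within sampling noise. The fit was tested on simulated data.

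Genes named are the 12 highest and 12 lowest log2 fold changes among called genes whose mean over the 8 libraries reached 50 reads and whose ages did not overlap (Gm, Rik and antigen receptor segment symbols left out), up to 4 called members of each of 46 gene lists, or in a list without calls the 2 with most reads, and up to 6 of these for each difference between tissues. Genes added after their values were seen are said to be so, and further members are named in counts. The comparison, members and lists were chosen with earlier results of these data known. Alternatives were edgeR with TMM and RLE and DESeq2 1.42.0 on the recovered reads, limma-voom with quality weights, TMM scaling, other pseudocounts, no filter, the 2 ages alone, a replicate block and leaving out each library. Tables were handled with the data.table package (version 1.17.8), pandas 2.3.3 and Python 3.11.15, and figures were drawn with matplotlib 3.10.9.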

Additional observations from a re-analysis of the deposited data

Results flagged for a closer look

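Among the 4 libraries of an age, a single library was far from the other 3 in 28 of 476 sets of values looked at (119 named genes at 4 ages), by a gap to its nearest neighbour that, as a share of the whole range, exceeded Dixon's critical value for 4; chance flags about 1 in 20 such sets. All values are normalised counts.

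At 15 months replicate 1 stood apart in Gbp3 at 91.8 against 72.4 to 75.3 in the others and Per3 at 622 against 453 to 479. Replicate 2 stood apart in Fmod at 3877 against 2870.1 to 3031 in the others, S100a9 at 76.8 against 8.95 to 18.1 and Mstn at 1799 against 1513 to 1552. Replicate 4 stood apart in Abcc9 at 4054 against 4625 to 4704 in the others, Hba-a2 at 2899 against 1907 to 2074 and Rpl3 at 1269 against 1068 to 1099.

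At 24 months replicate 1 stood apart in Gbp3 at 837 against 146 to 255 in the others and Ighm at 2901 against 4073 to 4276. Replicate 2 stood apart in Atp5e at 2583 against 2759.6 to 2775 in the others. Replicate 3 stood apart in Uqcr10 at 3143 against 2982 to 3007 in the others, Mfn2 at 7299.9 against 6672 to 6714, Cd59a at 391 against 468 to 479 and Mki67 at 22.4 against 31.6 to 32.7. Replicate 4 stood apart in Krt18 at 343 against 26.9 to 77.1 in the others, Gsn at 19372 against 25688 to 26259 and Cxcl12 at 2887 against 2198 to 2299.

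At 6 months, which enters only through the spread, replicate 1 stood apart in Gbp4 at 316 against 156 to 180.4 in the others, Banp at 55.8 against 79.1 to 83.0, P4ha1 at 582 against 751 to 770.3 and C1qa at 515 against 357 to 377. Replicate 2 stood apart in Uqcr10 at 3615 against 3375 to 3407 in the others. Replicate 4 stood apart in Col1a2 at 7014 against 3804 to 4008 in the others. At 30 months, likewise, replicate 2 stood apart in Mb at 67030.4 against 48554 to 50503 in the others. Replicate 3 stood apart in Gsn at 15866 against 21259 to 21593 in the others, mt-Cytb at 398622 against 461883 to 473780 and Ccng1 at 7759 against 11575 to 11734.

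The change from 15 to 24 months differed between Muscle and the mean of the 7 other tissues in 4 of the genes named, tested as a contrast over all libraries. On the log2 scale the difference was 2.94 for Krt18 and 0.48 for Cd59a, which were more positive in Muscle, and -0.48 for Nr3c1 and -0.77 for Irs1, which were more negative. For Irs1 the difference from Heart alone did not pass (-0.27, adjusted p = 0.675).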

How the results depend on the processing

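For the 350 genes past the threshold at 24 against 15 months, edgeR called 331 with TMM and 332 with RLE, DESeq2 593 (279 higher, 314 lower) and limma-voom with quality weights 601 (230 higher and 371 lower, or 38.3% higher against 48.9%). Without the filter on low values 183 passed, in a larger family of tests. Pseudocounts of 0.1 and 5 gave 350 and 366 genes, TMM scaling 326, and the 8 libraries of both ages alone 409. Leaving out a library gave 45 to 974. For the difference from Heart, 0 genes became 12 with sample quality weights and 0 to 13 when a library was left out, the highest without 24-month Heart replicate 4. For the difference from the 7 other tissues, 84 genes became 287 with sample quality weights and 32 to 131 when a library was left out. The cause of these shifts was not tested, apart from fewer libraries and more genes tested. No result reversed its direction under any alternative run, over 73 called genes named; 36 of these failed the threshold in at least 1 of the alternatives that kept all libraries of both ages, and 59 in at least 1 fit that left out a library. Scaling shifted the median log2 fold change of all genes by less than 0.02, from 0.0049 with the authors' factors to 0.0162 with TMM.

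The labels do not say that a replicate number marks a shared animal or batch, and libraries with the same number at 15 and 24 months did not deviate together (correlations 0.0923, -0.0619, 0.00082 and 0.0562 for numbers 1 to 4). With the replicate number as a block 393 genes passed (215 higher, 178 lower), 1 for the difference from Heart, and 100 for that from the 7 other tissues.

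Depth limits what can be seen in genes of few reads: of the white blood cell markers, all 18 T and natural killer cell genes stayed below the filter with all 16 libraries, and 3 passed it without 30-month replicate 3.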
